A study of Mus musculus with 2 samples.

Results

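The Myc and Max network genes are 10 protein-coding genes of the mouse (Myc, Mycn, Mycl, Max, Mlx, Mga, Mnt, Mxi1, Mxd1 and Mxd4) out of 21951 in the GENCODE vM21 annotation, and the peaks of SRCAP CUT&RUN at and around them were examined. The genes were chosen by name, and a peak was assigned to one of them when its midpoint lay from 1000 bp upstream to 500 bp downstream of any annotated transcription start site (TSS) of the gene (a promoter peak), elsewhere in the gene (a body peak), or within 50 kb of the gene (a flank peak). This gave 52 of the 28718 peaks found with an antibody against GFP and 35 of the 28167 peaks found with an antibody against SRCAP.

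Both libraries came from SYAT cells, mouse embryonic stem cells (mESCs) derived from the CGR8 line, in which both Srcap alleles carry a YPet-AID tag and the auxin receptor OsTir1 is expressed, so that SRCAP can be degraded on demand. SYAT is a single engineered line. The cells here were controls, kept with auxinole, which blocks basal degradation of the tagged protein, and were moved to serum and LIF medium before the experiment. The labels give the auxinole at 200 nM, and the methods of the study give the unit as µM. CUT&RUN, in which an antibody directs a nuclease to cut out the DNA around its target, was performed on 100000 fixed cells with an antibody at a dilution of 1 to 50. The GFP antibody recognises the YPet tag and the SRCAP antibody the protein itself, so the libraries are different views of the same protein, with 1 library per antibody. The labels call both libraries CUT&RUN, whereas the methods describe CUT&RUN with the SRCAP antibody and name the GFP antibody for CUT&Tag, a related assay that uses a transposase, so the assay behind the GFP list is not certain. No replicate, untagged cell or unspecific antibody is among the samples used here, so no difference between the lists was tested, and a peak found with one antibody only cannot be told apart from a peak missed with the other. The lists hold no read counts, and their depth is unknown. Intervals in brackets are 95% Wilson intervals and cover counting error only.

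SRCAP is the ATPase of the remodelling complex that places the histone variant H2A.Z in nucleosomes. In pluripotent cells the study describes H2A.Z at promoters and at enhancers, active ones as well as bivalent or poised ones. Max is a small basic helix-loop-helix leucine zipper (bHLH-ZIP) protein that pairs with Myc, Mycn or Mycl to activate genes, and with Mnt, Mga or the Mxd proteins to repress them, in each case through the E-box CACGTG. Mlx is a related partner that pairs with Mnt, some Mxd proteins and glucose-responsive factors. In embryonic stem cells Myc and Mycn drive growth and proliferation, and Mga with Max forms part of a variant Polycomb complex that keeps germ cell genes silent.

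The sequences under the peaks on which the following results turn are given here first, from the GRCm38 genome (RefSeq GRCm38.p6, the mm10 coordinates of the lists), 5′ to 3′ on the strand of the gene. Capitals mark matches on either strand, as written or as the reverse complement, to the E-box (CACGTG), to the box bound by the factor NF-Y (CCAAT), to the GC box bound by Sp1 and its relatives (GGGCGG), and to the cyclic AMP response element (TGACGTCA). In windows of 300 bp upstream of 54342 TSSs of protein-coding genes, 7.27% held CACGTG, 36.9% CCAAT, 41.8% the GC box and 1.93% TGACGTCA on either strand. Exons were trimmed off. The promoter peaks of Mxd4, Mxd1, Max, Mlx and Mga, the 5 genes with peaks of both lists at their 5′-most coding TSS, are shown as the windows chr5:34187863-34188162 (minus strand), chr6:86669274-86669573 (minus), chr12:76962202-76962437 (minus), chr11:101086986-101087276 (plus) and chr2:119897044-119897227 (plus).
Mxd4 promoter: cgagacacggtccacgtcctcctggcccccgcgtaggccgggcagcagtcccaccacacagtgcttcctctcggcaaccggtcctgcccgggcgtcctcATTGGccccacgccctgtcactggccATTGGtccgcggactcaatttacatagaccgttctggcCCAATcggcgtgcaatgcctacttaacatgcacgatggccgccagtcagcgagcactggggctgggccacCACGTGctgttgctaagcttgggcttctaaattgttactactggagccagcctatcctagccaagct
Mxd1 promoter: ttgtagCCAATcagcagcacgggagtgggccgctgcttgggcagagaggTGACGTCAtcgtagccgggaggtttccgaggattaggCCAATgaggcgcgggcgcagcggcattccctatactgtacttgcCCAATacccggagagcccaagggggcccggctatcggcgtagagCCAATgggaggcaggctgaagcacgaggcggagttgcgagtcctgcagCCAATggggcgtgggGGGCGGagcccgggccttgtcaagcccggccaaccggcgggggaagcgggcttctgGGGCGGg
Max promoter: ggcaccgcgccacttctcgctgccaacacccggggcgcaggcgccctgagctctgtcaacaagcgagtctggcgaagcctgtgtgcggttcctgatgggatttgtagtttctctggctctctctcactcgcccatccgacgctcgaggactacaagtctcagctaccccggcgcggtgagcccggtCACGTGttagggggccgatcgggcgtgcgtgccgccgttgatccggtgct
Mlx promoter: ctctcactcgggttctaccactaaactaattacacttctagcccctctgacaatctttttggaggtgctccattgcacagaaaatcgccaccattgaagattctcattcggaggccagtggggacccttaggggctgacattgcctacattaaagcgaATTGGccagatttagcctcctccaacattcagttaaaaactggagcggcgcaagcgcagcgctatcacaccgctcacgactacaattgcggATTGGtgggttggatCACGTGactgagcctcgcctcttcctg
Mga promoter: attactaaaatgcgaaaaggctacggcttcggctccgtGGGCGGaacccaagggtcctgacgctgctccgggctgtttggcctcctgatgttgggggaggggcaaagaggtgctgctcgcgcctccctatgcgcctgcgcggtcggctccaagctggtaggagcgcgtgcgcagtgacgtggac

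The remaining E-boxes in the peak windows are those of the Mnt intron peak at chr11:74832098-74832397 (plus strand) and 3 sites shown with 60 bp each: a further one upstream of Max at chr12:76962494-76962553 (minus), one downstream of Mxi1 at chr19:53393167-53393226 (plus) and one downstream of Mlx at chr11:101138404-101138463 (plus).
Mnt intron: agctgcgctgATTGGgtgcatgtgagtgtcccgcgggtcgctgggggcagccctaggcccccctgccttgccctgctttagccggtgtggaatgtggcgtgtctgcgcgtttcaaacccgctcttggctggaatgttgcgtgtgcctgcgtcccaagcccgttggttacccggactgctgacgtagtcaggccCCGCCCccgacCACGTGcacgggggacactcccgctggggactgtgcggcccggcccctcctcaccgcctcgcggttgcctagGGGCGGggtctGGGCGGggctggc
Max upstream E-box: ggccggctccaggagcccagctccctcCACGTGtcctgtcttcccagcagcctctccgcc
Mxi1 downstream E-box: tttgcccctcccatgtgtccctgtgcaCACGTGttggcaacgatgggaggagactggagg
Mlx downstream E-box: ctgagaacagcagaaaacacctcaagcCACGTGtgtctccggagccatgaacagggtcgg

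Shown with 200 bp each are the highest-scoring peaks of Max at chr12:76965248-76965447 (minus strand), Mga at chr2:119857544-119857743 (plus), Mnt at chr11:74848184-74848383 (plus) and Mxi1 at chr19:53421382-53421581 (plus), and, because Myc and Mycn had no promoter peak, the highest-scoring shared peak near Myc (chr15:62010816-62011015, plus) and shared peaks of Mycn downstream (chr12:12927441-12927640, minus) and upstream (chr12:12943371-12943570, minus). None of these 7 windows holds CACGTG. The windows of Myc and Mycn and the Mga promoter were chosen after the values were seen, and the highest-scoring peak near Mlx lies in an exon of Tubg1 and is not shown.
Max distal: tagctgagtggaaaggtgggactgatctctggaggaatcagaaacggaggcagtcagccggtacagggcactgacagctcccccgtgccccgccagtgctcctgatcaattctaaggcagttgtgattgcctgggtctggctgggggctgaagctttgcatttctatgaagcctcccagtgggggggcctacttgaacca
Mga distal: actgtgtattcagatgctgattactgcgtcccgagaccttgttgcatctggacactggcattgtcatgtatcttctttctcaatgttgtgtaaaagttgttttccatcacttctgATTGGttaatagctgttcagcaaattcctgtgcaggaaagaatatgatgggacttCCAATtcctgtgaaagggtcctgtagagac
Mnt distal: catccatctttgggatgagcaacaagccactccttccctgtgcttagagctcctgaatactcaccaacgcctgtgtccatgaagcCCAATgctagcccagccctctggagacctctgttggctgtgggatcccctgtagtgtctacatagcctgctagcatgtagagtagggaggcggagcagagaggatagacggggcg
Mxi1 distal: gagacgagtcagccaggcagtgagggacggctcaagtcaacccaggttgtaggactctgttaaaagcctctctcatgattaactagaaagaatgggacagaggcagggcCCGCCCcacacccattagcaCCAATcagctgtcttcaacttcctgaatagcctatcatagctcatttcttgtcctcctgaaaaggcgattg
Myc distal: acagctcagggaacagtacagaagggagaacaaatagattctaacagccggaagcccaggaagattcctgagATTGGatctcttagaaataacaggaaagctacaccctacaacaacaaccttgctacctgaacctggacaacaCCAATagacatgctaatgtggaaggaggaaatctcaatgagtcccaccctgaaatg
Mycn downstream: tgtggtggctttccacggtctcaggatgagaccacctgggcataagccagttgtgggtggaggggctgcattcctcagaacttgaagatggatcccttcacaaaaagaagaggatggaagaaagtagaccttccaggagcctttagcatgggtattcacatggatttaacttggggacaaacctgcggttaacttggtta
Mycn upstream: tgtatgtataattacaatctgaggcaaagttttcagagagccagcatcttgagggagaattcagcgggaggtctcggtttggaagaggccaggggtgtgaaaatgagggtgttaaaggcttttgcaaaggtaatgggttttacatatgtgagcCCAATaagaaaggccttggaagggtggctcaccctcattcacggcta

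Promoter peaks were found at most of the network genes, and at none of the TSSs of Myc and Mycn. With the GFP antibody 8 of 10 genes had one (80.0%, 49.0 to 94.3%), with the SRCAP antibody 7 of 10 (70.0%, 39.7 to 89.2%), and 7 of 10 had one in both lists: Max, Mlx, Mga, Mnt, Mxi1, Mxd1 and Mxd4. Mycl had promoter peaks in the GFP list only. Over all protein-coding genes the shares were 35.0% (GFP), 35.6% (SRCAP) and 27.0% (both). All 10 genes have CpG-rich promoters, with an observed to expected CpG ratio of 0.674 (Mycn) to 0.873 (Mga) within 500 bp of the TSS, against a median of 0.561 over protein-coding genes. Among the 10189 protein-coding genes with a ratio of at least 0.6, these shares were 52.2%, 53.1% and 40.9%. The last of these lies inside the interval of the 10 network genes, so their share could not be told from that of other CpG-rich promoters at this number of genes.

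Some of these promoter peaks lay at internal start sites. When the window was set at the 5′-most protein-coding TSS alone, a choice made after seeing the data, 7 of 10 genes kept a GFP peak (39.7 to 89.2%) and 5 of 10 an SRCAP peak, each of these with a GFP peak as well (23.7 to 76.3%), beside 29.4%, 30.0% and 22.4% of all protein-coding genes. The share among CpG-rich promoters was not computed for this window, so no matched comparison is given. The 5 genes with both were Max, Mlx, Mga, Mxd1 and Mxd4, and those with a GFP peak only were Mycl and Mnt. Peaks elsewhere in the gene added no further gene: 8 and 7 of 10 genes had a promoter or body peak, against 49.0% (GFP) and 49.6% (SRCAP) of protein-coding genes. Within 50 kb, all 10 genes had peaks in both lists. Of all protein-coding genes, 79.7% had a GFP peak and 80.5% an SRCAP peak there, and the share with both is not given. List by list, this window separates the network genes little from the rest. The network genes had a median of 5 GFP and 4 SRCAP peaks each in that window, and all protein-coding genes a median of 3 in each list. These windows grow with the length of the gene, and no median matched for length or CpG content was computed. Of the peaks counted, 8 GFP and 5 SRCAP peaks lay in the promoter window of another protein-coding gene.

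**Figure D1:**
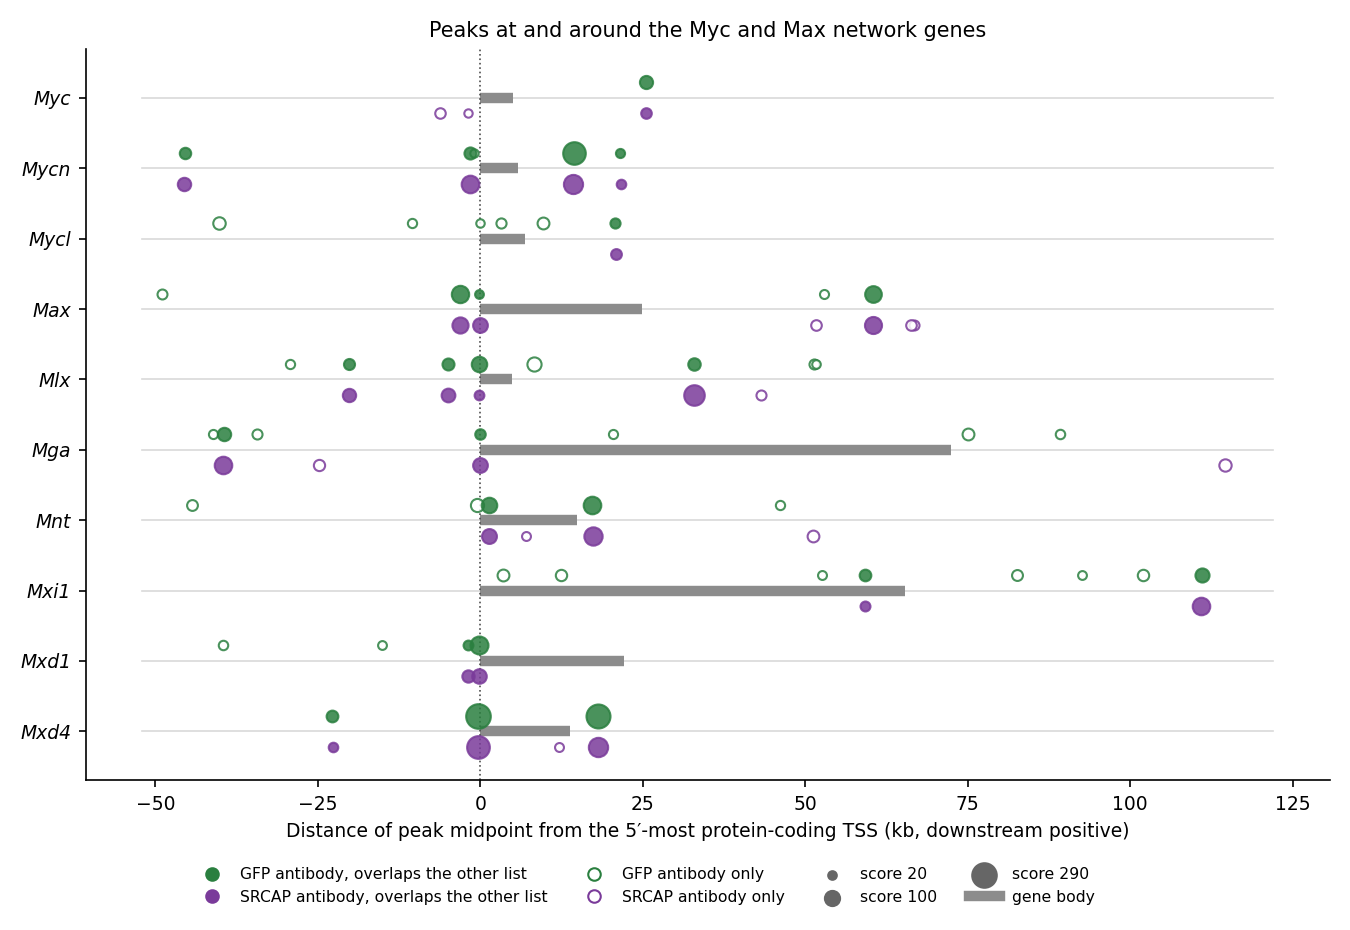
Each row is a gene drawn to scale from its 5′-most protein-coding TSS at 0 (grey bar, gene body), with GFP antibody peaks above the row and SRCAP antibody peaks below it, at the distance of their midpoint in kb. Circle area grows with the peak score and filled circles overlap a peak of the other list. Mxd4 and Mxd1 show large filled circles at the TSS in both lists. Myc and Mycn have no peak in the promoter window or in the gene. At this scale, though, the Mycn circles 1.04 and 1.55 kb upstream lie close to the TSS line.

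Of the 52 GFP peaks, 9 were promoter, 5 body and 38 flank peaks, and of the 35 SRCAP peaks 8 were promoter, 1 body and 26 flank peaks. Overlap by at least 1 bp with the other list was found for 24 GFP peaks (46.2%, 33.3 to 59.5%) and 24 SRCAP peaks (68.6%, 52.0 to 81.4%). The whole lists overlapped by 56.2% and 57.7%, and each interval includes the share of its whole list. More GFP than SRCAP peaks were found at 7 genes, most of all at Mxi1 (8 and 2) and Mycl (6 and 1), and fewer at Myc (1 and 3), Max (5 and 6) and Mxd4 (3 and 4). The score of a peak is the unlabelled numeric column of the lists, taken here as the confidence score of the peak caller, with a minimum of 13 and a median of 47 in each list. Its scale is not stated, so ranks within a list are given beside it.

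Among the activators, Myc (chr15:61985391-61990374, plus strand), the transcription factor that gives the network its name, had no peak from its promoters to the end of the gene. A single region was found by both antibodies, 25.5 kb downstream of the TSS in intergenic sequence, with scores of 71 (GFP) and 40 (SRCAP). Its midpoints lay 65 bp apart. With the SRCAP antibody only, weaker peaks were found 6.27 kb upstream (score 39) and 1.95 kb upstream (score 18, above only 1.81% of the SRCAP list), the latter in the promoter window of the transcript Gm37947. Both of these lay outside the promoter window of Myc.

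Mycn (chr12:12936093-12941914, minus strand), the Myc family member well known from neuroblastoma and expressed in embryonic stem cells, was flanked by 4 regions found in both lists. The strongest lay 14.4 kb downstream of the TSS, beyond the end of the gene, where the GFP peak of 1092 bp scored 244, above 98.5% of the GFP list, and the SRCAP peak of 682 bp inside it scored 171, above 96.2% of the SRCAP list. Just upstream of the gene, 1.55 kb from the TSS, a peak scored 57 (GFP) and 142 (SRCAP), and the midpoints were 2 bp apart. Weaker shared peaks lay 21.5 kb downstream (25 and 29) and 45.4 kb upstream in an exon of the noncoding gene Gm35208 (49 and 74). A further GFP peak of score 18 had its midpoint 1044 bp upstream of the TSS, just outside the promoter window, whereas the promoter peak farthest from its TSS that lay inside was that of Mnt at 544 bp. When windows were widened to 2500 bp on either side, Mycn gained a promoter peak in both lists and Myc in the SRCAP list.

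Mycl (chr4:122995652-123002485, plus strand), the third Myc family gene, had 6 GFP peaks and 1 SRCAP peak. Its GFP promoter peaks were weak, with a score of 19 at 28 bp upstream of the 5′-most TSS, above 1.77% of the 8719 promoter peaks of that list, and 35 at an internal TSS in an intron 3.17 kb downstream, above 25.5% of them. The only region near Mycl in both lists was the promoter of the tRNA-modifying enzyme gene Trit1, 20.7 kb downstream, with scores of 35 and 42. The remaining GFP peaks, at 40.3 kb and 10.5 kb upstream and 9.69 kb downstream, scored 62, 26 and 54. None of the 3 activator genes had a promoter peak in both lists. Of all protein-coding genes 27.0% had one, and of CpG-rich ones 40.9%, so the absence at 3 genes cannot be set apart from these shares. With windows of 2500 bp on either side, Mycn had a promoter peak in both lists.

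Max (chr12:76937269-76962201, minus strand), the obligate partner of the Myc proteins, had a promoter peak in both lists. The SRCAP peak scored 94, above 78.0% of the 8776 promoter peaks of its list, and was centred 86 bp upstream of the TSS. The GFP peak scored only 22, above 3.8% of the promoter peaks of its list, and was centred 236 bp upstream, so the pair overlapped by 60 bp. An E-box lay in each of them: the one 50 bp upstream of the TSS, in capitals in the promoter sequence above, was inside the SRCAP peak, and the one 325 bp upstream was inside the GFP peak. Stronger than the promoter was a shared region 3.15 kb upstream (137 and 116), and a shared region of similar score lay 60.4 kb downstream in an intron of the farnesyltransferase subunit gene Fntb (125 and 132).

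Mlx (chr11:101087277-101092207, plus strand), the Max-like partner, showed the reverse order at its promoter. Here the GFP peak scored 105, above 84.3% of promoter peaks, and the SRCAP peak 31, above 19.2%. The peaks were centred 142 and 227 bp upstream and overlapped by 223 bp. An E-box 27 bp upstream of the TSS lay inside the GFP peak and beyond the end of the SRCAP peak. Mlx sits among closely packed genes, and of its 7 GFP and 4 SRCAP flank peaks those at the promoters of Coasy, a coenzyme A synthesis gene 4.9 kb upstream (56 and 79), and of Tubg1 and Retreg3, the former a gamma-tubulin gene 32.9 kb downstream (62 and 199), were in both lists. A GFP peak at the promoter of Psmc3ip, 8.29 kb downstream, scored 85 and had no SRCAP counterpart, and a shared intergenic peak 20.2 kb upstream scored 45 and 73.

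Mga (chr2:119897228-119969581, plus strand), the large Max partner that also carries a T-box DNA-binding domain, had overlapping promoter peaks that spanned its TSS. The SRCAP peak of 590 bp scored 94 (above 78.0% of promoter peaks) and contained the whole GFP peak of 389 bp, which scored 39 (above 30.3%). Its sequence holds a GC box and no E-box. The highest score near Mga lay 39.6 kb upstream in intergenic sequence, 140 with the SRCAP antibody and 74 with the GFP antibody, with midpoints 201 bp apart, the largest distance of any pair. Within the gene a GFP peak of score 25, 20.5 kb downstream of the TSS in an exon of a transcript that retains an intron, consisted of 56.7% repeat-masked sequence. The other 4 GFP and 2 SRCAP flank peaks scored 25 to 60 and were each in 1 list only.

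Mnt (chr11:74830920-74845725, plus strand), the Max-binding repressor expressed in most tissues, had promoter peaks in both lists that did not coincide. The GFP peak scored 71 (above 68.1% of promoter peaks) and was centred 544 bp upstream of the 5′-most TSS. The SRCAP peak scored 23 (above 5.49%) and lay 7.0 kb downstream of that TSS in an intron, 448 bp past an internal coding TSS. The lists met instead 1.33 kb downstream of the TSS in an intron of Mnt, where a GFP peak of score 106 was contained in an SRCAP peak of score 96, and this was the only body peak of any network gene found by both antibodies. The intron sequence shown above holds an E-box beside a GC box. A second strong pair, with scores of 141 and 154, lay 17.2 kb downstream of the TSS, past the end of the gene. In the promoter window of the 5′-most TSS, Mnt has E-boxes 119 bp upstream and 476 bp downstream, and neither was inside a peak.

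Mxi1 (chr19:53310518-53375810, plus strand), a repressor of the Mxd family, had no peak at its 5′-most TSS in either list. Its promoter peaks, scoring 52 (GFP) and 33 (SRCAP), lay 59.2 kb downstream in an intron, next to the start of a transcript with a retained intron. When only the TSSs of protein-coding transcripts were used, Mxi1 dropped out of both lists. With the GFP antibody 3 body peaks were found in introns 3.55, 12.5 and 52.6 kb downstream of the TSS (scores 54, 48 and 23), of which the SRCAP list had none. The strongest pair lay 111.0 kb downstream of the TSS, beyond the end of the gene (84 and 140). Of the 3 GFP peaks between, one at 82.6 kb (score 43) held an E-box.

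Mxd1 (chr6:86647042-86669161, minus strand), the founding Mxd repressor, which rises when cells stop dividing and differentiate, had matching promoter peaks with midpoints 10 bp apart. The GFP peak scored 148, above 92.5% of promoter peaks, and the SRCAP peak, which lay within it, 91, above 77.1%. Its sequence stands out among those printed by 5 CCAAT matches and 1 TGACGTCA. It also holds 2 GC boxes and no E-box. A weaker shared peak lay 1.96 kb upstream (32 and 60), and 2 GFP peaks at 15.1 kb and 39.6 kb upstream, scoring 22 and 28, had no SRCAP counterpart.

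Mxd4 (chr5:34173883-34187720, minus strand), another repressor of the Mxd family, had the highest promoter score of the 10 genes in both lists. The GFP peak scored 293, above 98.7% of promoter peaks, and the SRCAP peak 247, above 98.3%. The GFP peak of 504 bp lay inside the SRCAP peak of 562 bp, and both contained the E-box 209 bp upstream of the TSS as well as the 3 CCAAT matches of the printed window. A second SRCAP peak of score 23 lay at an internal TSS 12.1 kb downstream, in an untranslated exon. Another strong pair, 277 and 174, was found 18.1 kb downstream at the shared promoter of Haus3 and Poln, a mitotic spindle gene and a DNA polymerase gene, and a weaker one, 53 and 29, 22.8 kb upstream in an intron of Zfyve28.

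**Figure D2:**
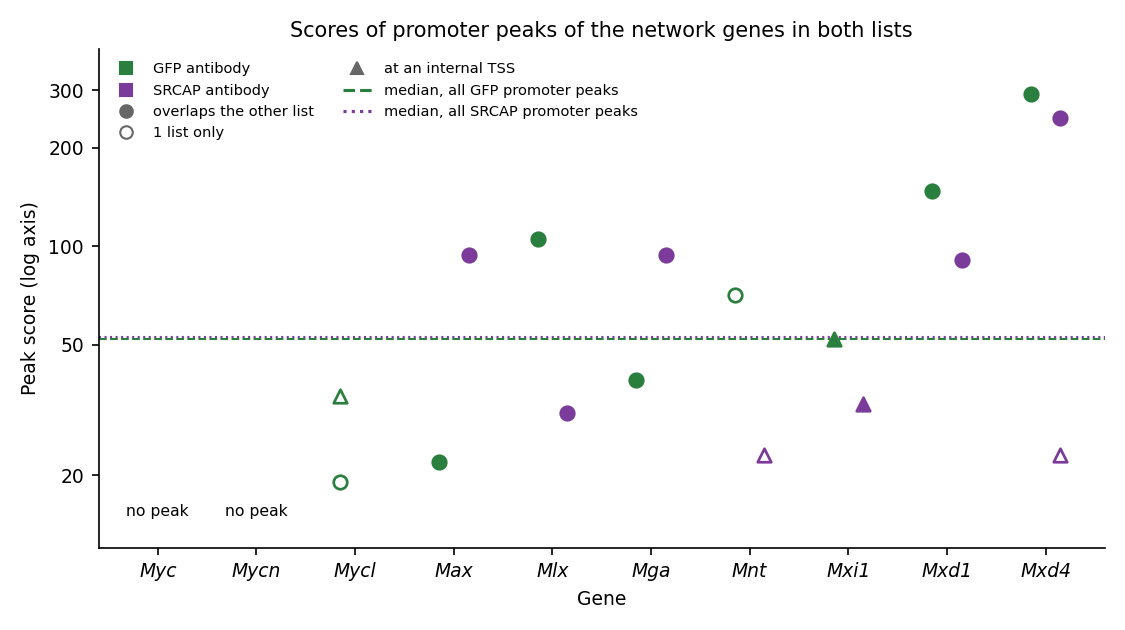
Score (log axis) of every promoter peak of the 10 genes, with circles at the 5′-most protein-coding TSS, triangles at internal TSSs, and open symbols for peaks found in 1 list only. Mxd4 and Mxd1 lie above the medians of all promoter peaks (52.0 and 53.0, dashed and dotted lines) in both lists, Max and Mga only in the SRCAP list, Mlx and Mnt only in the GFP list, and Myc and Mycn have no promoter peak.

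The order of promoter scores thus differed between antibodies below the leading gene. In the GFP list it ran Mxd4 (293), Mxd1 (148), Mlx (105), Mnt (71), Mxi1 (52), Mga (39), Mycl (35) and Max (22). In the SRCAP list it ran Mxd4 (247), Max and Mga (94 each), Mxd1 (91), Mxi1 (33), Mlx (31) and Mnt (23). These are the highest scores of each gene at any of its TSSs. Those of Mxi1 in both lists, Mycl, and Mnt in the SRCAP list lay at internal TSSs. The scores of Mnt thus belong to different places. With 1 library per antibody the error of a score is not known, and neighbours in these orders cannot be told apart.

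Taken over all 24 overlapping pairs, 6 were in promoters, 1 in a gene body and 17 in flanks. Of the flank pairs, 4 lay in the promoter window of another protein-coding gene (Trit1, Coasy, Tubg1 with Retreg3, and Haus3 with Poln), and 13 did not. The GFP score was the higher for 10 pairs, the SRCAP score for 14. The midpoints lay a median of 67.5 bp and at most 201 bp apart, and 11 pairs were within 50 bp.

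**Figure D3:**
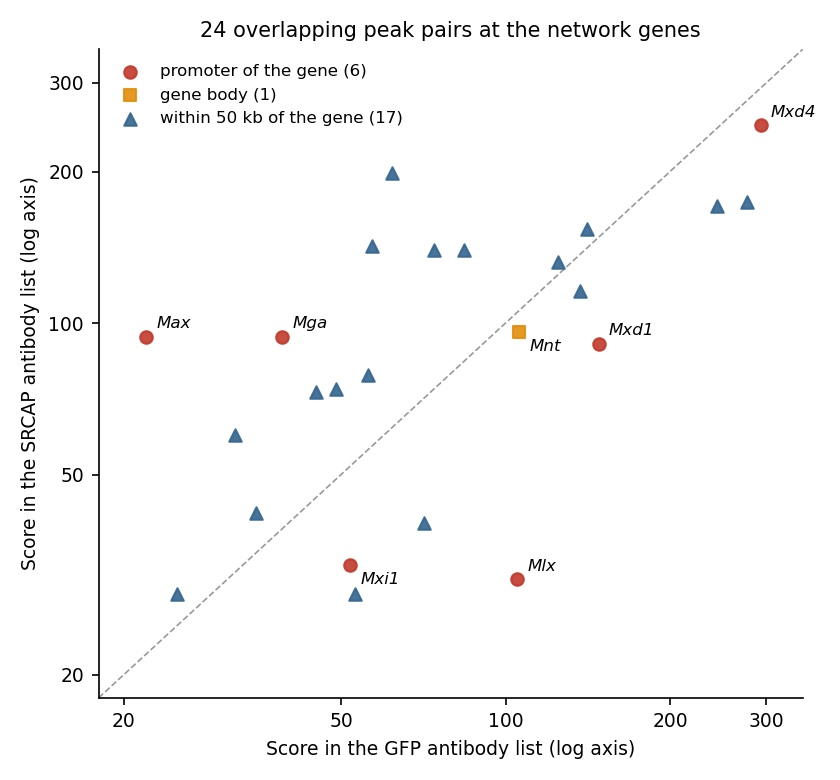
Each symbol is 1 of the 24 overlapping peak pairs, with its GFP score on the horizontal and its SRCAP score on the vertical log axis, and the dashed line marks equal scores. The promoters of Max and Mga lie above the line (94 in the SRCAP list against 22 and 39) and those of Mlx and Mxd1 below it, and 17 of the 24 pairs are flank peaks.

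E-boxes, the sites to which the proteins of the network bind, were searched in windows of 300 bp at the peak midpoints, and were found in a minority of the peaks at the network's own genes. CACGTG was present at 6 of 52 GFP peaks (11.5%, 5.4 to 23.0%) and 3 of 35 SRCAP peaks (8.57%, 2.96 to 22.4%). In the whole lists it was present at 5.25% and 5.51% of peaks, and at 7.34% and 7.96% of promoter peaks. Both intervals include the share of promoter peaks, and that of the GFP peaks begins just above the share of its whole list. Only 9 of the 52 GFP and 8 of the 35 SRCAP peaks were promoter peaks, so the promoter share is not a matched one. The peaks with a match were those of the Max promoter, the Mnt intron and the Mxd4 promoter in both lists, and those of the Mlx promoter and the sites downstream of Mxi1 and Mlx in the GFP list. The site downstream of Mlx lay in the window and outside the peak itself. In the promoter window of the 5′-most coding TSS, 4 of 10 genes (Max, Mnt, Mlx and Mxd4) held 6 CACGTG matches, 4 of them inside a peak, and the 3 Myc genes, Mga, Mxi1 and Mxd1 held none. Of the 21866 protein-coding genes searched, 22.4% held one, and of CpG-rich ones 28.1%.

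Other motifs were searched in the same windows and on both strands. CCAAT was present at 29 of 52 GFP peaks (55.8%, 42.3 to 68.4%) and 16 of 35 SRCAP peaks (45.7%, 30.5 to 61.8%), against 37.5% and 37.0% of all peaks. Only the interval of the GFP peaks lies above the whole-list share for CCAAT. Both intervals include the share of all promoter peaks, 42.6% (GFP) and 43.1% (SRCAP), which again is not a matched share. The GC box GGGCGG was present at 13.5% and 25.7% of the peaks (20.3% and 23.6% of all), and the ETS site CCGGAAG at 7.69% and 11.4% (5.71% and 6.45%). The YY1 site AAGATGGC was found at no GFP and 1 SRCAP peak (2.73% and 2.95% of all peaks held it). TGACGTCA was found at 1 GFP peak (0.34 to 10.1%) and 2 SRCAP peaks (1.58 to 18.6%), against 0.651% and 0.838% of all peaks. The SRCAP interval for TGACGTCA begins above the whole-list share and includes the 2.04% of promoter peaks, but it rests on 2 peaks. The AP-1 site, TGACTCA or TGAGTCA, was present at 5 of 52 GFP peaks (9.62%, 4.18 to 20.6%) and none of 35 SRCAP peaks (0.0 to 9.89%), against 5.93% and 5.61% of all peaks, which both intervals include. All 5 were among the 28 peaks in the GFP list only (17.9%, 7.88 to 35.6%), against 6.47% of all peaks in the GFP list only. This interval begins above that share, but it rests on 5 peaks. E-boxes and CCAAT were split in the same way. At the network genes' overlapping GFP peaks they were present at 16.7% and 62.5%, against 5.56% and 39.6% of all overlapping GFP peaks. At peaks in the GFP list only they were present at 7.14% and 50.0%, against 4.84% and 34.9%. At the network genes' overlapping SRCAP peaks they were present at 12.5% and 54.2%, against 5.71% and 39.7% of all overlapping SRCAP peaks. The 11 peaks in the SRCAP list only lay below the corresponding shares, with 0.0% and 27.3% against 5.24% and 33.3%. The split by overlap was not among the planned results and was made for AP-1, E-boxes and CCAAT only. Differences in these splits were not tested.

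Genes that work with the network were placed beside it by lists of the same kind. Of 11 other bHLH-ZIP and related E-box genes, 7 (GFP) and 6 (SRCAP) had a promoter peak and 5 had both (45.5%, 21.3 to 72.0%). By GFP score Arntl, the circadian factor BMAL1, led those with both (147 and 71), followed by Mxd3, a further Mxd repressor (61 and 48), while in the SRCAP list Mlxip, a glucose-responsive partner of Mlx, scored highest of those with both (42 and 87). Of 13 genes of the Mga and Max Polycomb complex PRC1.6, 6 had a GFP peak, 4 an SRCAP peak and 2 both (15.4%, 4.33 to 42.2%). These were L3mbtl2, a chromatin-binding subunit (72 and 30), and Tfdp2, a partner of E2F factors, whose peaks of 60 and 34 lay at different TSSs. Of 13 cofactors of Myc and Mxd proteins, 8 had a peak in each list and 6 in both (46.2%, 23.2 to 70.9%), with the Mxd corepressor Sin3a at 164 and 115 and Ep400, an ATPase that also exchanges H2A.Z, at 71 and 142.

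Of 8 genes of Myc protein turnover, 5 (GFP) and 6 (SRCAP) had a promoter peak and 4 had both (50.0%, 21.5 to 78.5%). Gsk3b, the kinase that marks Myc for degradation, scored 320 and 181, more than any network gene in the GFP list, and the deubiquitinase gene Usp36 scored 61 and 31. Of 24 classical Myc target genes, 13 and 14 had a promoter peak and 9 had both (37.5%, 21.2 to 57.3%), led by GFP score by the helicase gene Eif4a1 (119 and 99) and the phosphatase gene Cdc25a (93 and 138). By SRCAP score the nucleolar protein gene Npm1 (19 and 146, at different places) and the telomerase gene Tert (36 and 146) stood above them. Nucleolin, encoded by Ncl, had an SRCAP peak only, of score 145. All of these intervals include the 40.9% of CpG-rich promoters. Of 9 embryonic stem cell marker genes 2 had promoter peaks, in both lists (22.2%, 6.32 to 54.7%, an interval that includes the 27.0% of all protein-coding genes): Zfp42 (88 and 101) and Tfcp2l1 (34 and 40, at different places). The lists hold binding and not expression, so these markers do not check the identity of the cells.

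**Figure D4:**
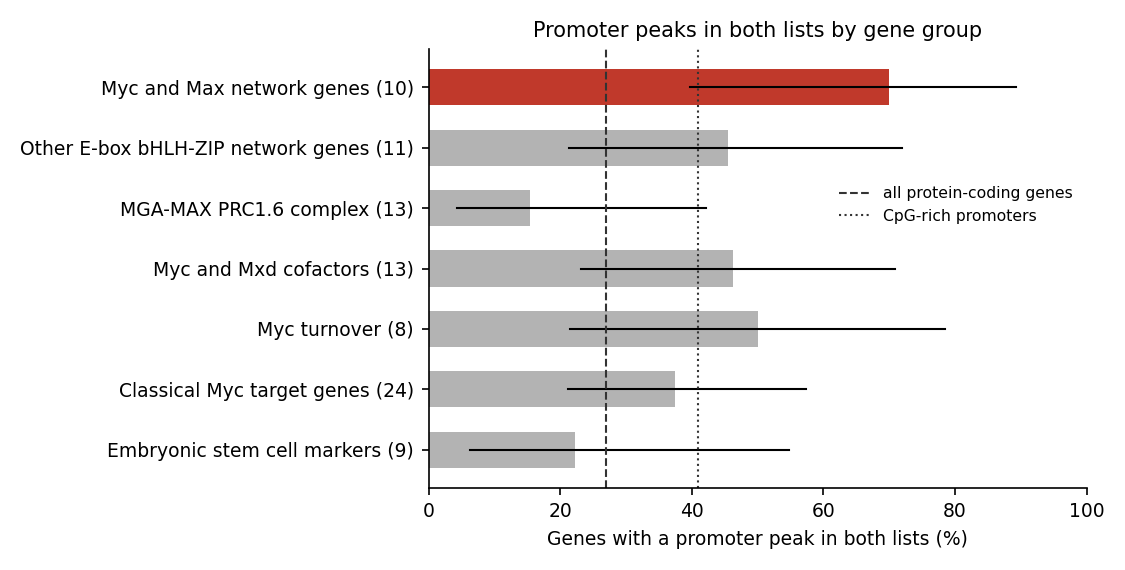
Bars give the percentage of each gene group with a promoter peak in both lists (number of genes in brackets) and black lines its 95% Wilson interval, with the shares of all protein-coding genes (dashed, 27.0%) and of CpG-rich promoters (dotted, 40.9%). The 10 network genes stand at 70.0% and the Polycomb complex PRC1.6 at 15.4%, and the intervals of all groups overlap.

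Repeat-masked bases made up most of 2 of the 52 GFP peaks (3.85%, 1.06 to 13%), one in Mga and one 49.0 kb upstream of Max, and of none of the 35 SRCAP peaks (0.0 to 9.89%). In the whole lists 11.5% of GFP and 11.8% of SRCAP peaks were of this kind. Intergenic sequence held 25 of 38 GFP and 17 of 26 SRCAP flank peaks, and introns of neighbouring genes held 10 and 6. Close to the outer limit of 50 kb lay the GFP peak 49.0 kb upstream of Max (score 33) on the inside and a GFP peak 50.1 kb from Mycn (score 36) on the outside.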

How the data were processed

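Per the labels, CUT&RUN was performed by the authors in SYAT cells with GFP and SRCAP antibodies (1 library each, insert size selection at 250 bp, paired reads of 75 nt). The submitters' processing notes name STAR, Picard and MACS2 and the builds mm10 and dm6. For its ChIP libraries the study describes mapping with STAR, removal of duplicates with Picard and peak calling with MACS2, but for CUT&RUN these steps and the control for peak calling are not described in the sources used here. Each deposited list holds chromosome, start, end, name and a score per peak. The authors' score column carries no label. MACS2 writes 10 times the negative log10 of a q-value there, and the lowest score in both lists, 13, is what a q-value of 0.05 would give, but the scale is not stated.

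Peaks were assigned by midpoint to GENCODE vM21 genes (GRCm38) with Python 3.11.15, numpy 2.4.6, pandas 2.3.3 and scipy 1.17.1, and plotted with matplotlib 3.10.9. Peaks overlapping by at least 1 bp were called shared. Shares are given with 95% Wilson intervals, beside the same share over 21951 protein-coding genes or over the whole list. Motifs were counted on both strands in 300 bp windows. With 1 library per antibody no test was possible, and read depth is unknown. Assignment and motif search were tested on simulated data. All 10 genes are named with every promoter and body peak, and from each list of related genes the 2 with the highest GFP score among those with a promoter peak in both lists. Ncl, Mlxip, Npm1 and Tert were named after their values were seen. Members and lists were chosen with earlier results of these data known. The alternatives were a score at or above the list's median, assignment by any overlap, other promoter and flank windows, other overlap rules and other motif windows.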

Additional observations from a re-analysis of the deposited data

How the results depend on the processing

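Of 42 alternative values, 34 stayed within 1.5 times the reported count (or within the interval of the share) and 8 did not. Keeping only peaks scoring at or above the median of their list left 5 of the network genes with a promoter peak in the GFP list (Max, Mga and Mycl were lost) and 4 in the SRCAP list (Mlx, Mnt and Mxi1 were lost). It also left 5 genes with a GFP peak in promoter or body, and 26 GFP and 21 SRCAP peaks in all. A flank of 25 kb gave 34 GFP peaks, and a flank of 100 kb gave 66 SRCAP peaks. With motif windows of 500 bp, 5 SRCAP peaks held CACGTG. Assignment by any overlap gave Mycn a GFP promoter peak. The window at the 5′-most protein-coding TSS, added after the data were seen, gave 7 and 5 genes. No paired analysis was possible because with 1 library for either antibody no result came from a test. Read depth is unknown, so a gene without a peak may be one whose signal stayed under the threshold of the peak caller.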
